A study of Capra hircus with 3 samples.

Results

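CYP7A1-positive hepatocytes of the goat liver are the cells in which transcripts of cholesterol 7-alpha-hydroxylase, the enzyme that commits cholesterol to bile acids, were counted at least 2 times. They were chosen from single-cell counts of unique molecular identifiers (UMIs, each standing for 1 captured RNA molecule) in 3 steps. A barcode needed at least 4 UMIs in the sum of CPS1, a urea cycle enzyme, and ABCB11, the bile salt export pump. It also needed at least 2 UMIs of CYP7A1, and no UMI of STAB2, MSR1 or THEMIS, which mark sinusoidal endothelial cells, macrophages and T cells. The rule found 1780 of 25591 barcodes: 1080 of 8731 in the NASH library, 338 of 9375 in NASH-T and 362 of 7485 in Con. CYP7A1 and the other 5 genes of the rule were left out of every comparison.

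Bile acids are made in hepatocytes from cholesterol, and CYP7A1 catalyses the first and rate-limiting step of the classical route. CYP8B1 then sets the proportion of cholic acid, CYP27A1 oxidises the side chain, and BAAT joins the finished acid to taurine or glycine before export into bile. In rodent and human liver, CYP7A1 is held down by the bile acid receptor FXR (gene NR1H4) and by a hormonal signal from the gut through FGFR4 and KLB, and its transcripts are known to be most abundant in hepatocytes near the central vein, where Wnt signalling is strongest.

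The livers came from 15 female goats aged 3 to 4 years. The NASH group had non-alcoholic steatohepatitis on the HRDS diet, the NASH-T group (steatohepatitis tolerance) received that same diet, and the Con group was healthy on the LRDS diet. Cells were freed by digestion in 0.25% trypsin at 37 °C for 40 min with a harvest every 20 min, strained through 40 µm mesh and cleared of red cells. Each library is a pool of 5 livers, and each group has a single library. Goats within a pool therefore cannot be told apart, and neither can group, pool and handling.

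The NASH, NASH-T and Con libraries held 31195014, 29572158 and 25506238 UMIs, and no barcode had fewer than 500. Scrublet, a caller of barcodes that hold more than 1 cell, marked 3.92%, 4.65% and 3.89% of all barcodes of NASH, NASH-T and Con, and 2.59%, 1.78% and 1.38% of the positive cells; marked cells were kept, and removed in an alternative. Of the positive barcodes, 6, 1 and 5 in NASH, NASH-T and Con also occurred in another library, among 64 such barcodes in all. Intervals in brackets are 95% intervals (exact Poisson for counts, exact binomial for shares, exact conditional binomial for ratios) and cover counting error only. Mitochondrially encoded genes supplied a median of 0.0335%, 0.0462% and 0.0649% of UMIs in positive cells of NASH, NASH-T and Con, against 0.0359%, 0.0511% and 0.0554% in the zero cells paired with them.

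The positive cells held a median of 5, 5 and 4 CYP7A1 UMIs in NASH, NASH-T and Con, with highest counts of 44, 34 and 37. They carried 76.1%, 76.3% and 69.5% of all CYP7A1 UMIs of their libraries. Just inside the threshold, 229, 67 and 94 cells of NASH, NASH-T and Con had exactly 2 CYP7A1 UMIs, with a median of 4473, 5778 and 5487 UMIs in total. Just outside it, 485, 178 and 198 hepatocytes had exactly 1, with a median of 3985, 5252.5 and 4602.5. For the hepatocyte threshold, 6, 4 and 2 positive cells of NASH, NASH-T and Con had exactly 4 UMIs of CPS1 and ABCB11, and 8, 2 and 3 further barcodes had exactly 3. In T cell-like barcodes (a THEMIS UMI, none of CPS1 or ABCB11), which should lack the gene, 2 or more CYP7A1 UMIs occurred in 0.0940%, 0.0636% and 0.170% of NASH, NASH-T and Con barcodes at median depths of 1105, 1296 and 1241 UMIs. Over all barcodes without a CPS1 or ABCB11 UMI, the shares were 0.376%, 0.0566% and 0.187% of NASH, NASH-T and Con. At least 1 CYP7A1 UMI occurred in 3.68%, 1.30% and 1.95% of these barcodes, most often in NASH. The part of such stray UMIs in the shares of positive hepatocytes was not tested.

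CYP7A1-positive cells made up a larger share of hepatocytes in NASH than in the other libraries. With hepatocytes counted as barcodes that met the rule apart from CYP7A1, the share was 29.3% (27.8 to 30.8) of 3691 cells in NASH, 12.5% (11.3 to 13.8) of 2709 in NASH-T and 14.4% (13.1 to 15.8) of 2512 in Con. The NASH-T and Con intervals overlapped, and both lay well under that of NASH. From 1000 UMIs upward the share grew with the depth of a cell, so every hepatocyte was also thinned to 2000 UMIs, which left out 382, 295 and 211 shallower cells of NASH, NASH-T and Con. The share was then 20.4% (19.0 to 21.8) in NASH, 7.66% (6.63 to 8.80) in NASH-T and 8.30% (7.21 to 9.50) in Con. The order was the same among cells with at least 8000 UMIs, where 49.8% of NASH, 23.5% of NASH-T and 25.2% of Con hepatocytes were positive. These shares follow from the rule and carry no test between groups, since each group is 1 pool.

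**Figure D1:**
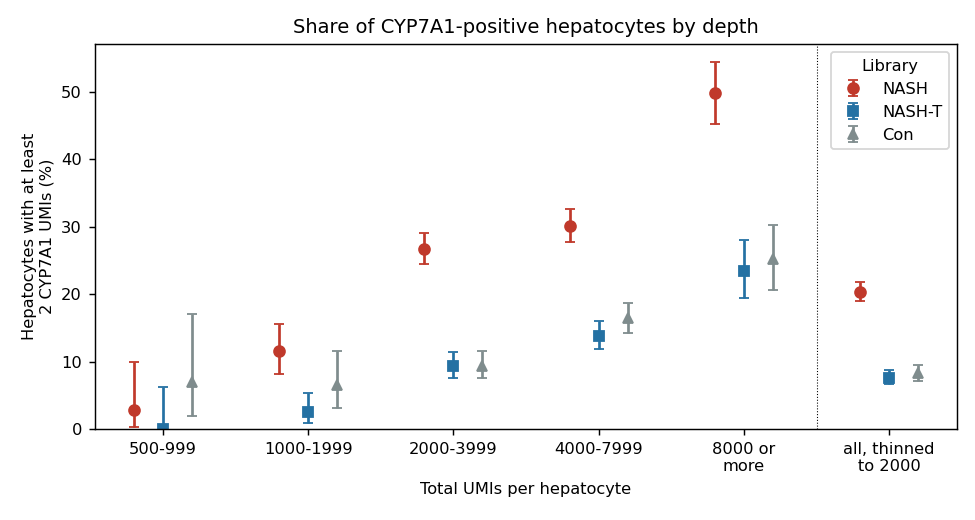
Share of hepatocytes with at least 2 CYP7A1 UMIs (vertical axis, %) by total UMIs of the cell (horizontal axis), with all cells thinned to 2000 UMIs at the right; points are the NASH, NASH-T and Con libraries and bars are exact binomial 95% intervals. From 2000 UMIs upward the NASH points lie above the others, at 20.4% against 7.66% in NASH-T and 8.30% in Con after thinning.

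The positive cells were compared with CYP7A1-zero hepatocytes of the same library, which met the same rule but had no CYP7A1 UMI (2126, 2193 and 1952 cells in NASH, NASH-T and Con). Each positive cell was paired with 1 zero cell of near-equal total UMIs, which gave 1036, 338 and 359 pairs; 44, 0 and 3 positive cells found no partner within 10%. UMIs were summed over the cells of each side and library, and the 6 sums were tested with edgeR's quasi-likelihood test with library as a block and Benjamini-Hochberg adjustment ("edgeR adjusted p"). Levels are in CPM (counts of a gene relative to 1e+06 summed UMIs), and the 3 libraries are the replicates. The p-values therefore measure the spread among 3 pools of different groups, not among goats.

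Of 9544 genes tested, 176 (1.84%) rose in positive cells and 119 (1.25%) fell at an edgeR adjusted p under 0.05, together 3.09%, while the median log2 fold change over all genes was 0.00. Of the 176, 173 had a ratio above 1 in all 3 libraries, as did 13.0% of all genes tested; of the 119, 118 had a ratio below 1 in all 3, as did 21.4%. The files give no symbol for 48 of the higher and 21 of the lower genes. The second marker given for these cells, CSAD, the decarboxylase that makes hypotaurine for bile acid conjugation, rose by a log2 fold change of 1.05 ± 0.10 (SE, edgeR adjusted p = 0.00027). It stood at 675, 580.2 and 545 CPM in the positive cells of NASH, NASH-T and Con, against 331, 233 and 332 CPM in their zero cells. A CSAD UMI was seen in 86.7%, 89.6% and 82.5% of positive cells of NASH, NASH-T and Con, against 54.8%, 53.8% and 62.4% of zero cells, and in 6.67%, 5.15% and 6.46% of the shallower T cell-like barcodes. With DESeq2 in place of edgeR, 105 genes rose and 52 fell, and with edgeR and no library term 4 rose and 0 fell (197 higher and 180 lower at an unadjusted p under 0.05). Without the NASH library 114 genes rose and 58 fell, without NASH-T 97 and 60, and without Con 227 and 196.

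The other marker given, CACNA2D3, an auxiliary subunit of voltage-gated calcium channels, was sparse outside NASH. It had 302, 7 and 5 UMIs in positive cells of NASH, NASH-T and Con, against 85, 3 and 1 in zero cells, or 52.0, 3.04 and 2.12 CPM in positive cells against 15.1, 1.31 and 0.426 CPM in zero cells of NASH, NASH-T and Con. A CACNA2D3 UMI was present in 14.4%, 1.78% and 1.39% of positive cells and in 4.63%, 0.592% and 0.279% of zero cells of NASH, NASH-T and Con. The gene was too sparse outside NASH for the filter on low counts and was not tested. It passes a filter at 50 UMIs over the 6 sums only through its NASH counts. Its log2 fold change was then 1.79 ± 0.22 (edgeR adjusted p = 0.00077), and DESeq2 gave 1.77 ± 0.55 (adjusted p = 0.079). Both fits rest on the NASH counts, so neither p-value is support from 3 libraries. In NASH-T and Con, 6 and 5 paired positive cells had a UMI of it, so its use as a marker rests on NASH.

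Increases were ranked among called genes with a symbol and a ratio above 1 in all 3 libraries. The genes that rose most were of mixed function, and most were sparse. PAK5 (log2 fold change 2.49) was not ranked, since its ratio in NASH was 0.874. RGSL1, a member of the regulator of G-protein signalling family, stood at 9.99, 25.7 and 21.2 CPM in the positive cells of NASH, NASH-T and Con, against 2.48, 3.93 and 2.13 CPM in their zero cells, a log2 fold change of 2.59 ± 0.29 (edgeR adjusted p = 0.00056). GRIK2, a subunit of kainate-type glutamate receptors, stood at 41.5, 47.0 and 48.3 CPM in the positive cells of NASH, NASH-T and Con, against 8.87, 6.98 and 9.80 CPM in their zero cells. The GRIK2 log2 fold change was 2.40 ± 0.17 (edgeR adjusted p = 4.6e-05). In both genes all 3 positive sums lay above all 3 zero sums, as they did for ESRRG and NKD1. No share over all genes tested stands beside such separation of sums, here or below. Most genes it is given for were named because they were called, so it is a description and not further support. ESRRG, an orphan nuclear receptor, had 11.4, 52.6 and 56.8 CPM in the positive cells of NASH, NASH-T and Con, against 6.74, 9.60 and 7.67 CPM in their zero cells (2.03 ± 0.31, edgeR adjusted p = 0.005), with a far smaller ratio in NASH (1.69) than in Con (7.41). NKD1, a Wnt-induced inhibitor of Wnt signalling, was the most abundant of the group at 119.7, 166 and 163 CPM in the positive cells of NASH, NASH-T and Con, against 46.5, 40.1 and 51.5 CPM in their zero cells. The NKD1 log2 fold change was 1.68 ± 0.12 (edgeR adjusted p = 5.9e-05). PAPPA2, a protease that cleaves IGF-binding proteins, had 16.5, 99.2 and 56.8 CPM in the positive cells of NASH, NASH-T and Con, against 7.80, 26.2 and 11.9 CPM in their zero cells (1.79 ± 0.20, edgeR adjusted p = 0.00056), although the positive level in NASH was below the zero level in NASH-T.

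The other 7 of the 12 largest increases ranked in this way ran from 1.61 to 1.96: SLCO5A1 (organic anion transporter family), TACC1, the diacylglycerol kinase DGKG, ANKRD33B, TPRG1, SNCAIP and the centriole protein POC1A. SLCO5A1 was at 8.61, 45.2 and 3.39 CPM in the positive cells of NASH, NASH-T and Con, against 3.01, 9.60 and 0.852 CPM in their zero cells, highest in NASH-T. DGKG was at 8.78, 26.1 and 55.5 CPM in the positive cells of NASH, NASH-T and Con, against 3.90, 8.29 and 11.1 CPM in their zero cells, highest in Con. Leaving out NASH-T ended the calls of ESRRG, SLCO5A1 and TPRG1 (edgeR adjusted p = 0.056, 0.12 and 0.11), and leaving out NASH ended that of POC1A (edgeR adjusted p = 0.055).

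Decreases were ranked in the same way, with a ratio below 1 in all 3 libraries. The 12 largest included HAL, UPP2, FGFR2 and KCND3. HAL, histidine ammonia-lyase, the first enzyme of histidine breakdown, fell to 13.9, 17.0 and 19.1 CPM in the positive cells of NASH, NASH-T and Con, against 61.2, 89.9 and 46.0 CPM in their zero cells. The HAL log2 fold change was -1.95 ± 0.18 (edgeR adjusted p = 0.00024). UPP2, a uridine phosphorylase, stood at 188, 34.4 and 70.8 CPM in the positive cells of NASH, NASH-T and Con, against 516, 212 and 234 CPM in their zero cells. The UPP2 log2 fold change was -1.77 ± 0.16 (edgeR adjusted p = 0.0002). FGFR2, a fibroblast growth factor receptor, stood at 54.1, 44.8 and 39.4 CPM in the positive cells of NASH, NASH-T and Con, against 183, 225 and 94.6 CPM in their zero cells. The FGFR2 log2 fold change was -1.77 ± 0.15 (edgeR adjusted p = 0.00017). In FGFR2 every positive sum lay below every zero sum, and the same held for HAL and UPP2. KCND3, a voltage-gated potassium channel subunit, stood at 79.9, 30.0 and 40.3 CPM in the positive cells of NASH, NASH-T and Con, against 257, 163 and 78.0 CPM in their zero cells (-1.67 ± 0.18, edgeR adjusted p = 0.00056); its positive level in NASH was above its zero level in Con.

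RORB, a nuclear receptor, stood at 39.1, 3.48 and 44.5 CPM in the positive cells of NASH, NASH-T and Con, against 136, 72.4 and 106 CPM in their zero cells (-1.88 ± 0.27, edgeR adjusted p = 0.0035), and its positive level was lowest by far in NASH-T. The remaining 7 were the sodium channel SCN3A (-2.16), PTCHD4 (-1.95), the actin bundler PLS1 (-1.90), the lipid flippase ATP10B (-1.84), CCDC148 (-1.81), ARHGEF38 (-1.60) and SFMBT2 (-1.58). PTCHD4 had 0 UMIs in the NASH-T positive cells, and its call ended without NASH or without NASH-T (edgeR adjusted p = 0.074 and 0.091). Leaving out NASH-T also ended the call of SCN3A (edgeR adjusted p = 0.056).

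**Figure D2:**
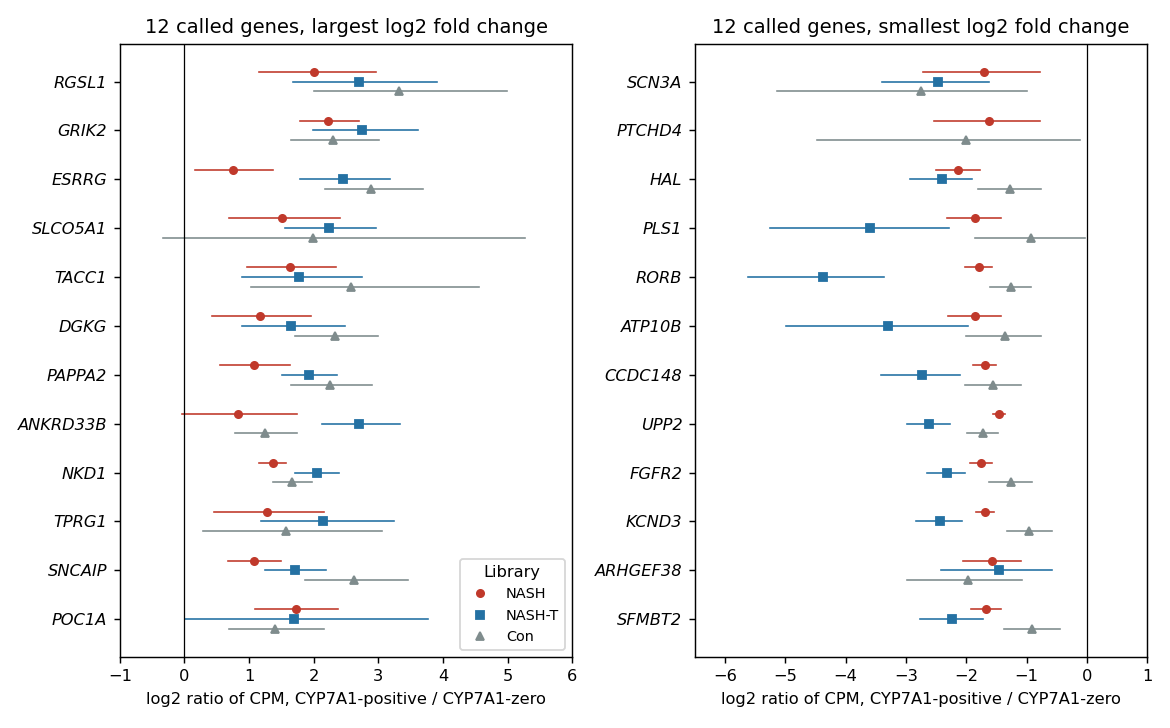
Ratio of CPM in CYP7A1-positive to CYP7A1-zero hepatocytes (log2, horizontal axis) for 12 increased (left) and 12 decreased (right) genes. These had the largest and smallest log2 fold changes among called genes with a symbol and ratios on 1 side of 1 in every library. Each point is 1 library and each bar its exact 95% counting interval. PTCHD4 has no NASH-T point because its positive cells had 0 UMIs there. The choice of genes placed each left-panel point above 0 and each right-panel point below it.

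Of the other bile acid enzymes, 15 were tested (3 more were too sparse); 1 rose and none fell, with a median log2 fold change of 0.01, beside 1.84% higher and 1.25% lower among all genes. At an unadjusted edgeR p under 0.05, 5 of the 15 were higher and 0 lower, against 619 higher and 586 lower of all 9544 genes. The 1 was CYP27A1, the mitochondrial sterol 27-hydroxylase, at 185, 244 and 350.1 CPM in the positive cells of NASH, NASH-T and Con, against 109, 202 and 249 CPM in their zero cells (0.55 ± 0.09, edgeR adjusted p = 0.0081); its positive level in NASH was below its zero level in NASH-T and in Con, and the call was lost without NASH (edgeR adjusted p = 0.073). CYP8B1, the sterol 12-alpha-hydroxylase, was higher in positive cells of each library but did not pass, at 68.4, 61.8 and 75.9 CPM in the positive cells of NASH, NASH-T and Con, against 53.2, 52.4 and 48.6 CPM in their zero cells. The CYP8B1 log2 fold change was 0.44 ± 0.11 (edgeR adjusted p = 0.061). AKR1D1, the steroid 5-beta-reductase that acts downstream, stood at 790.4, 769 and 833 CPM in the positive cells of NASH, NASH-T and Con, against 651, 647 and 866 CPM in their zero cells (0.20 ± 0.08, edgeR adjusted p = 0.32), higher in positive cells of NASH and NASH-T and lower in those of Con. CYP7B1, of the alternative route that starts from oxysterols, had 609, 703 and 560.0 CPM in the positive cells of NASH, NASH-T and Con, against 621, 639 and 524 CPM in their zero cells. The CYP7B1 log2 fold change was 0.10 ± 0.07 (edgeR adjusted p = 0.66). The conjugating enzyme BAAT was sparse, at 5.68, 6.09 and 7.63 CPM in the positive cells of NASH, NASH-T and Con, against 6.03, 6.11 and 4.69 CPM in their zero cells.

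None of the 28 tested regulators of CYP7A1 passed by edgeR or DESeq2 (median -0.04; 1 higher and 1 lower at an unadjusted edgeR p under 0.05). NR1H4, the bile acid receptor FXR, stood at 1054, 1096 and 985 CPM in the positive cells of NASH, NASH-T and Con, against 1021, 1051 and 914 CPM in their zero cells. The NR1H4 log2 fold change was 0.11 ± 0.07 (edgeR adjusted p = 0.59). NR5A2, a nuclear receptor that binds the CYP7A1 promoter in rodents, was at 352, 358 and 358 CPM in the positive cells of NASH, NASH-T and Con, against 367, 404 and 373 CPM in their zero cells. The NR5A2 log2 fold change was -0.06 ± 0.07 (edgeR adjusted p = 0.83). HNF4A, a master factor of hepatocytes, was at 407, 311 and 395 CPM in the positive cells of NASH, NASH-T and Con, against 399, 409.8 and 419 CPM in their zero cells. The HNF4A log2 fold change was -0.11 ± 0.09 (edgeR adjusted p = 0.72). NR5A2 was slightly lower and NR1H4 slightly higher in positive cells of every library. HNF4A was higher in those of NASH and lower in those of NASH-T and Con. Over the 3 libraries the sums of NR1H4 and HNF4A overlapped between cell sets. NR0B2, the FXR-induced repressor SHP, and FGFR4, the receptor for the gut signal, were sparse, at 6.54, 6.09 and 2.12 and 3.96, 4.35 and 5.09 CPM in positive cells of NASH, NASH-T and Con, against 5.14, 3.05 and 2.98 and 5.50, 7.85 and 5.96 CPM in zero cells. Of 19 clock genes and PAR bZIP factors, which give Cyp7a1 its daily rhythm in rodents, 0 of 19 passed by edgeR or DESeq2 (median 0.12, with 2 higher at an unadjusted edgeR p under 0.05). Their median log2 ratio was 0.15 in NASH, 0.04 in NASH-T and -0.04 in Con.

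In the list of taurine, glycine and sulfur amino acid genes, 4 of 15 tested rose and 1 fell (median 0.02; 3 more not tested), beside 1.84% higher and 1.25% lower among all genes. Besides CSAD, these were SLC6A6, the taurine transporter, at 12.6, 18.7 and 41.1 CPM in the positive cells of NASH, NASH-T and Con, against 5.50, 6.98 and 11.9 CPM in their zero cells. The SLC6A6 log2 fold change was 1.51 ± 0.20 (edgeR adjusted p = 0.0022). FMO1, a flavin monooxygenase that can oxidise hypotaurine to taurine, was at 1164, 1478 and 1909.6 CPM in the positive cells of NASH, NASH-T and Con, against 498, 687 and 913 CPM in their zero cells. The FMO1 log2 fold change was 1.17 ± 0.07 (edgeR adjusted p = 3.3e-05). CDO1, the cysteine dioxygenase that starts the route from cysteine, was at 162, 201 and 218 CPM in the positive cells of NASH, NASH-T and Con, against 126, 171 and 174 CPM in their zero cells. The CDO1 log2 fold change was 0.34 ± 0.08 (edgeR adjusted p = 0.038). All 3 positive sums of FMO1, and of SLC6A6, lay above all 3 zero sums; those of CDO1 overlapped, and its call ended on leaving out any 1 library (edgeR adjusted p = 0.057 to 0.29). The 1 that fell was GLDC, the decarboxylase of the glycine cleavage system, at 136, 97.9 and 52.1 CPM in the positive cells of NASH, NASH-T and Con, against 317, 261 and 130.4 CPM in their zero cells. The GLDC log2 fold change was -1.27 ± 0.08 (edgeR adjusted p = 4.6e-05). FMO1 stands in the pericentral list as well.

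Of 14 tested transporters of bile acids and bile lipids, 2 rose and 2 fell (median 0.01), beside 1.84% higher and 1.25% lower among all genes. ABCG2, an efflux pump of the canalicular side, rose by a log2 fold change of 0.35 ± 0.08 (edgeR adjusted p = 0.038). SLC22A7, an organic anion carrier, had a log2 fold change of -0.43 ± 0.08 (edgeR adjusted p = 0.012) and the flippase ATP8A1 one of -0.37 ± 0.07 (edgeR adjusted p = 0.022). Without NASH and without NASH-T the calls of ABCG2 (edgeR adjusted p = 0.38 and 0.17) and ATP8A1 (0.22 and 0.13) ended, and that of SLC22A7 ended without NASH (0.18). SLC10A1, the carrier NTCP that takes bile salts up from blood, did not pass, at 233, 148 and 222 CPM in the positive cells of NASH, NASH-T and Con, against 291, 209 and 239 CPM in their zero cells. The SLC10A1 log2 fold change was -0.27 ± 0.09 (edgeR adjusted p = 0.16). ABCB4, the phospholipid exporter of bile, stood at 894, 782 and 893 CPM in the positive cells of NASH, NASH-T and Con, against 706, 903 and 865 CPM in their zero cells (0.10 ± 0.09, edgeR adjusted p = 0.77), higher in positive cells of NASH and Con and lower in NASH-T. The export pump ABCB11 belongs to the rule and was not compared.

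**Figure D3:**
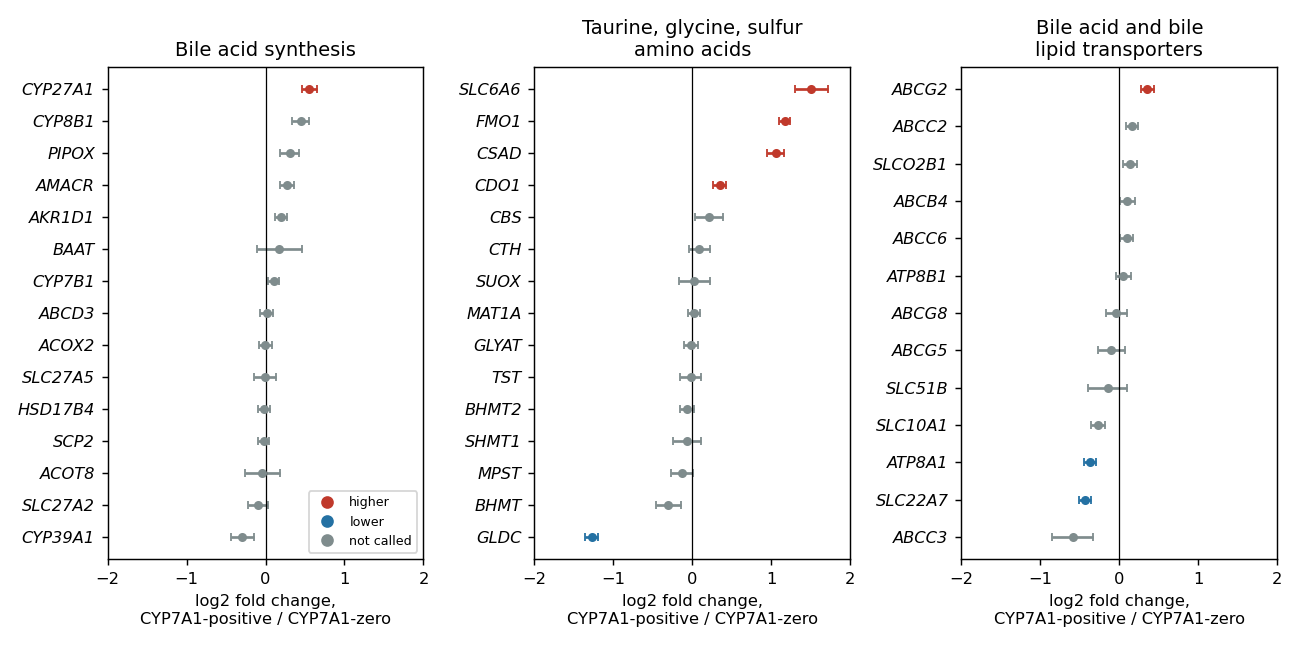
Log2 fold change of CYP7A1-positive over CYP7A1-zero hepatocytes (horizontal axis; bars are SE of the edgeR fit over 3 libraries) for tested members of 3 lists. A single bile acid synthesis enzyme, CYP27A1, is called, against 5 of 15 genes of the taurine, glycine and sulfur amino acid list and 3 of the 13 transporters drawn.

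Most of the tested genes known to be expressed near the central vein, or to be induced by Wnt signals, rose in positive cells. Of 19 tested, 12 rose and 2 fell, a median log2 fold change of 0.63, beside 1.84% higher and 1.25% lower among all genes. Of the Wnt targets and feedback genes, LGR5, a receptor that amplifies Wnt signals, stood at 301, 429.7 and 264 CPM in the positive cells of NASH, NASH-T and Con, against 115, 209 and 228 CPM in their zero cells (0.93 ± 0.17, edgeR adjusted p = 0.011); the ratio was 2.61 in NASH and 1.16 in Con. AXIN2, the standard readout of the canonical pathway, was at 16.4, 13.9 and 24.6 CPM in the positive cells of NASH, NASH-T and Con, against 8.16, 7.42 and 17.0 CPM in their zero cells. The AXIN2 log2 fold change was 0.84 ± 0.20 (edgeR adjusted p = 0.045). ZNRF3, a ubiquitin ligase that removes Wnt receptors, was at 513, 672 and 614 CPM in the positive cells of NASH, NASH-T and Con, against 344, 419.8 and 476 CPM in their zero cells (0.58 ± 0.08, edgeR adjusted p = 0.0022), whereas its relative RNF43 did not pass (0.16 ± 0.08, edgeR adjusted p = 0.47). The transcription factor TBX3 rose by 0.65 ± 0.14 (edgeR adjusted p = 0.032), most in NASH, where the ratio was 2.18 against 1.22 in NASH-T and 1.28 in Con. The call of AXIN2 ended without NASH or without NASH-T (edgeR adjusted p = 0.40 and 0.15), that of TBX3 without NASH (0.21) and that of LGR5 without NASH-T (0.10).

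The pericentral genes that rose also included enzymes and carriers. CYP2E1, which oxidises ethanol and many drugs, stood at 676, 559 and 692 CPM in the positive cells of NASH, NASH-T and Con, against 376, 384 and 533 CPM in their zero cells. The CYP2E1 log2 fold change was 0.63 ± 0.09 (edgeR adjusted p = 0.003). CYP1A2, a drug and oestrogen oxidase, was at 54.2, 37.0 and 85.6 CPM in the positive cells of NASH, NASH-T and Con, against 17.7, 31.0 and 36.6 CPM in their zero cells (1.16 ± 0.20, edgeR adjusted p = 0.0097; 0.062 without NASH), and its regulator AHR, the dioxin receptor, at 355, 649 and 448 CPM in the positive cells of NASH, NASH-T and Con, against 247, 310.3 and 329 CPM in their zero cells. The AHR log2 fold change was 0.71 ± 0.11 (edgeR adjusted p = 0.005). In each of the 3 genes the positive cells were higher in every library, with the ratio of CYP1A2 close to 1 in NASH-T (1.19). SLC13A3, a dicarboxylate carrier, had 44.8, 48.3 and 39.4 CPM in the positive cells of NASH, NASH-T and Con, against 15.8, 16.6 and 14.5 CPM in their zero cells (1.53 ± 0.14, edgeR adjusted p = 0.00021), with nearly the same ratio in all 3 libraries. The ammonium carrier RHBG rose by 1.19 ± 0.25 (edgeR adjusted p = 0.029), a call lost on leaving out any 1 library (edgeR adjusted p = 0.063 to 0.13), and RGN, which makes a precursor of vitamin C in most mammals, by 0.49 ± 0.07 (edgeR adjusted p = 0.0036). The 2 that fell were SLC1A2, a glutamate carrier that in rodents marks the innermost pericentral layer (-0.46 ± 0.09, edgeR adjusted p = 0.026), and LHPP (-0.79 ± 0.17, edgeR adjusted p = 0.031); without NASH-T neither passed (0.19 each), and without NASH LHPP did not (0.20).

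Each periportal gene that passed fell. Over the 17 tested, the median log2 ratio was -0.34 in NASH, -0.34 in NASH-T and -0.05 in Con. Of these genes, 5 fell and none rose (median log2 fold change -0.15), beside 1.25% lower and 1.84% higher among all genes. Beside HAL, they included GLS2, the liver glutaminase, at 26.3, 11.7 and 14.8 CPM in the positive cells of NASH, NASH-T and Con, against 73.6, 52.8 and 34.5 CPM in their zero cells (-1.55 ± 0.16, edgeR adjusted p = 0.00046), and HSD17B13, a lipid droplet protein, at 122, 55.7 and 69.5 CPM in the positive cells of NASH, NASH-T and Con, against 273, 184 and 124 CPM in their zero cells. The HSD17B13 log2 fold change was -1.19 ± 0.13 (edgeR adjusted p = 0.00055). SLC7A2, an arginine carrier, was at 296, 299 and 225 CPM in the positive cells of NASH, NASH-T and Con, against 416, 384 and 275 CPM in their zero cells (-0.35 ± 0.07, edgeR adjusted p = 0.028; 0.32 without NASH and 0.12 without NASH-T). The sums of GLS2, HSD17B13 and HAL did not overlap between cell sets. The urea cycle genes did not pass: ASS1, argininosuccinate synthase, stood at 264, 166 and 262 CPM in the positive cells of NASH, NASH-T and Con, against 273, 209.9 and 319.9 CPM in their zero cells. The ASS1 log2 fold change was -0.18 ± 0.08 (edgeR adjusted p = 0.4). ARG1, arginase, was lower in positive cells of NASH and NASH-T and higher in those of Con, at 545, 515 and 959 CPM in the positive cells of NASH, NASH-T and Con, against 636, 621 and 641 CPM in their zero cells. The ARG1 log2 fold change was 0.06 ± 0.14 (edgeR adjusted p = 0.93). CPS1, the first urea cycle enzyme, belongs to the rule; its UMIs together with those of ABCB11 had medians of 23, 34.5 and 29 in paired positive cells of NASH, NASH-T and Con, against 27, 35 and 27 in zero cells.

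**Figure D4:**
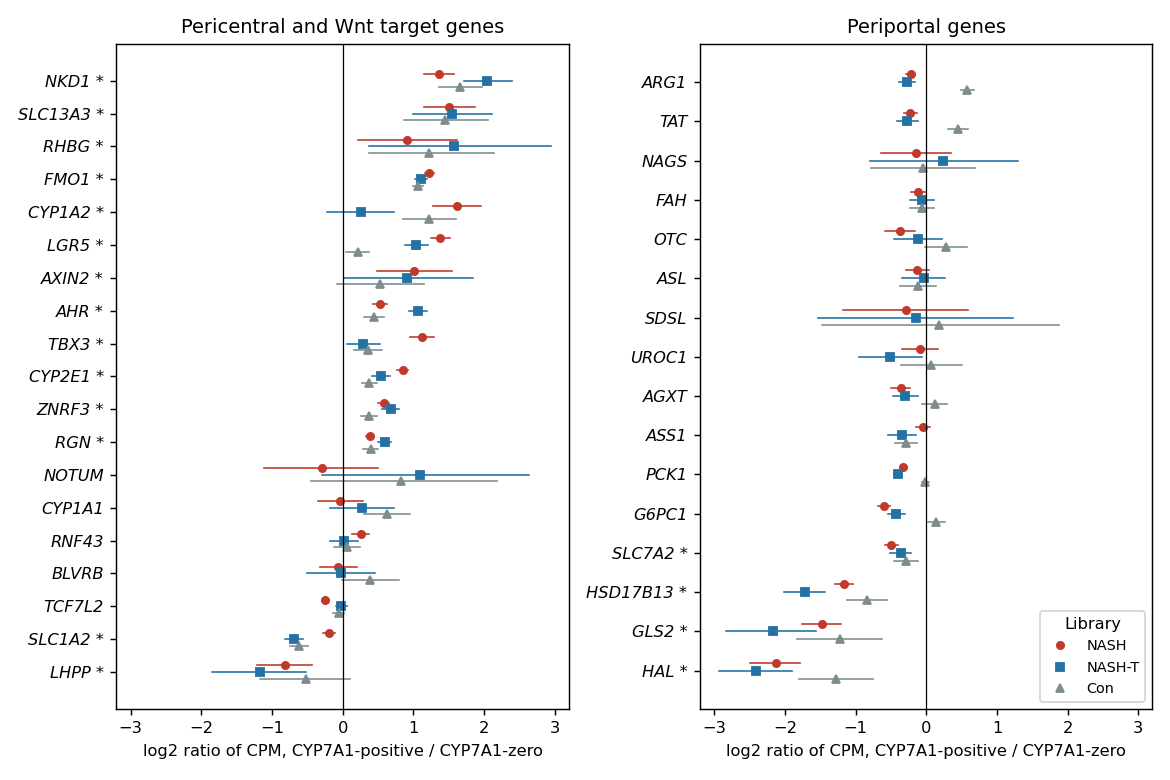
Ratio of CPM in CYP7A1-positive to CYP7A1-zero hepatocytes (log2, horizontal axis) for tested pericentral and Wnt target genes (left) and periportal genes (right); each point is 1 library with its exact 95% counting interval, and a star marks genes called by edgeR over the 3 libraries. Of the starred genes, 12 of 14 on the left lie to the right of 0, and all 4 drawn on the right lie to its left.

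Of 29 cytochrome P450 genes tested, 7 rose, none fell and 22 did not pass (median 0.24), beside 1.84% higher and 1.25% lower among all genes. The most abundant was CYP2C81, at 3777, 7898 and 4928 CPM in the positive cells of NASH, NASH-T and Con, against 2819, 5082 and 3355 CPM in their zero cells. The CYP2C81 log2 fold change was 0.57 ± 0.07 (edgeR adjusted p = 0.0012). CYP2C320 (0.77 ± 0.07, edgeR adjusted p = 0.00021), CYP2C89 (0.73 ± 0.09, edgeR adjusted p = 0.0012) and CYP2A13 (0.68 ± 0.11, edgeR adjusted p = 0.0071) rose as well, beside CYP1A2, CYP2E1 and CYP27A1. Members of the CYP2C family are near copies of each other, and how reads shared by them were counted is not given in the sources used here, so single members are uncertain. CYP3A24, a drug oxidase, did not pass, with 1738, 1281 and 1262 CPM in the positive cells of NASH, NASH-T and Con, against 787, 1196 and 1120.4 CPM in their zero cells (0.51 ± 0.16, edgeR adjusted p = 0.15), its difference being mostly in NASH although the sums did not overlap. ALAS1, the rate-limiting enzyme of haem synthesis, which supplies the P450 cofactor, was named after its values were seen; it stood at 262, 187 and 376 CPM in the positive cells of NASH, NASH-T and Con, against 96.5, 92.1 and 149.9 CPM in their zero cells (1.32 ± 0.09, edgeR adjusted p = 4.6e-05), and every positive sum lay above every zero sum.

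Of secreted liver proteins, HAMP and LBP were lower in positive cells, the 2 that fell among 24 acute phase and plasma protein genes tested (none rose; median -0.12), beside 1.25% lower and 1.84% higher among all genes. At an unadjusted edgeR p under 0.05, 9 of the 24 were lower and 0 higher. HAMP, the iron hormone hepcidin, stood at 357, 275 and 129 CPM in the positive cells of NASH, NASH-T and Con, against 613, 499.6 and 315 CPM in their zero cells. The HAMP log2 fold change was -0.92 ± 0.10 (edgeR adjusted p = 0.00044). LBP, which presents bacterial endotoxin to its receptor, was at 369, 431 and 201 CPM in the positive cells of NASH, NASH-T and Con, against 457, 615 and 388 CPM in their zero cells (-0.53 ± 0.10, edgeR adjusted p = 0.02; 0.084 without NASH-T). For both genes every library was lower in positive cells, and sums of different libraries overlapped. In the growth hormone and IGF list 2 of 14 tested rose and none fell (1.84% of all genes rose): PAPPA2 and PRLR, the prolactin receptor, at 464, 411 and 641 CPM in the positive cells of NASH, NASH-T and Con, against 275, 367 and 486 CPM in their zero cells (0.48 ± 0.10, edgeR adjusted p = 0.024; 0.23 without NASH).

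In the lists of cholesterol and lipid genes, 2 genes passed between positive and zero cells, beside 1.84% higher and 1.25% lower among all genes. None of 18 cholesterol synthesis genes tested passed by edgeR or DESeq2, although 17 lay above 0 in the fit (median 0.13, against 0.00 for all genes). Their median log2 ratio was 0.17 in NASH, 0.05 in NASH-T and -0.03 in Con, so the shift was not shared by all libraries. Of the 18, 4 were higher at an unadjusted edgeR p under 0.05. At the same unadjusted threshold 5 of 17 genes of sterol sensing, uptake and storage were higher and 0 lower, and 6 of 19 lipogenesis genes were higher and 1 lower. In the sterol list SCARB1, the receptor that takes up cholesterol from high-density lipoprotein, rose (0.36 ± 0.07, edgeR adjusted p = 0.018; 639.5, 579 and 564 CPM in positive cells against 482, 468 and 473 CPM in zero cells of NASH, NASH-T and Con). In the lipogenesis list ACSS2, which activates acetate in the cytosol, rose (0.56 ± 0.11, edgeR adjusted p = 0.023; 254, 125 and 29.2 CPM in positive cells against 185, 71.1 and 26.0 CPM in zero cells of NASH, NASH-T and Con), and of 13 genes of gluconeogenesis and propionate use, ACSS3, an acyl-CoA synthetase of mitochondria, rose (0.38 ± 0.07, edgeR adjusted p = 0.014; 1116, 969 and 1042 CPM in positive cells against 952, 712 and 802 CPM in zero cells of NASH, NASH-T and Con). Without NASH and without NASH-T the calls of SCARB1 (edgeR adjusted p = 0.21 and 0.087) and ACSS2 (0.12 and 0.19) ended, and that of ACSS3 ended without NASH-T (0.10). By edgeR and DESeq2 alike, none of 6 further lists had a call; counts at an unadjusted edgeR p under 0.05 are given beside each median. They were fatty acid oxidation (19 tested, median -0.09, 1 higher; median log2 ratio -0.04 in NASH, -0.31 in NASH-T and 0.05 in Con), apolipoproteins (14, -0.08, 1 lower), the unfolded protein response (14, -0.11, 1 higher and 3 lower), immediate early and heat shock genes (11, 0.05, 1 lower), mitochondrially encoded genes (10, -0.05, 0) and calcium channels (3, 0.02, 1 higher and 1 lower). Over all 9544 genes, 619 were higher and 586 lower at an unadjusted edgeR p under 0.05.

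By their markers both cell sets were hepatocytes. All 18 hepatocyte identity genes were tested; CYP2E1 rose and none fell, and the 18 together summed to 15936, 17512 and 15080.0 CPM in positive cells of NASH, NASH-T and Con, against 18112, 19300.0 and 15415 CPM in zero cells. Of the markers of 6 other liver cell types, 25 were tested and none passed by edgeR or DESeq2 (1 higher and 5 lower at an unadjusted edgeR p under 0.05). The sums that follow are for positive against zero cells, each in NASH, NASH-T and Con. The 12 T and NK cell markers summed to 49.4, 48.7 and 29.2 CPM in positive cells, against 34.4, 42.3 and 80.1 CPM in zero cells, with 2 of the 12 at 0 in positive cells of all 3 libraries. The 11 endothelial markers summed to 43.7, 53.5 and 48.7 against 46.5, 63.3 and 85.6 CPM, the 9 B and plasma cell markers to 27.7, 40.5 and 51.7 against 34.4, 58.5 and 43.9 CPM, and the 12 stellate, fibroblast and muscle markers to 105, 120.5 and 148 against 105, 109.5 and 69.9 CPM. The 10 macrophage markers summed to 884, 1529 and 719 against 802, 1328 and 917 CPM, nearly all from CD163, and the 12 cholangiocyte markers to 578, 519 and 664 against 718, 497 and 523 CPM, mostly from BICC1 and ANXA4, while the duct keratin KRT19 was at 0.172, 0 and 0 CPM in positive cells of NASH, NASH-T and Con. Their part in the results was not tested.

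Most differences were smaller between cells of like FMO1 count. FMO1 differed widely between the cell sets, so positive and zero cells were also paired on total UMIs within classes of FMO1 UMIs, an alternative chosen after the data had been seen (890, 335 and 350 pairs in NASH, NASH-T and Con). Then 4 genes rose and 3 fell, out of 9424 tested. Of the 295 genes called before, 292 were tested and 288 kept their direction, but their median absolute log2 fold change was 0.26, against 0.71 without the FMO1 classes. CSAD then had a log2 fold change of 0.32 (edgeR adjusted p = 0.27), NKD1 0.61 (0.19), LGR5 0.05 (0.99), HAL -0.86 (0.14), GLDC -0.57 (0.059) and HAMP -0.58 (0.12). The 3 genes with a symbol that passed were ALAS1 at 0.78 ± 0.08 (edgeR adjusted p = 0.0089), DGKG at 1.55 ± 0.23 (0.044) and SULT1E1, an oestrogen sulfotransferase, at -0.53 ± 0.07 (0.029). The pericentral list includes FMO1 itself, and its median was then 0.14.

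The share of positive cells was also larger with more FMO1 UMIs in every library. After thinning to 2000 UMIs, cells without an FMO1 UMI were positive in 9.50% (8.08 to 11.1) of cases in NASH, 1.51% (0.880 to 2.40) in NASH-T and 1.89% (1.10 to 3.00) in Con. With 4 or more FMO1 UMIs the share was 35.0% (31.1 to 39.1) in NASH, 15.0% (12.01 to 18.5) in NASH-T and 16.1% (13.3 to 19.2) in Con. With 1 FMO1 UMI it was 23.5%, 10.5% and 6.49%, and with 2 to 3 it was 29.9%, 11.8% and 9.59% in NASH, NASH-T and Con. In each of the 4 classes the NASH interval lay above those of NASH-T and Con, whose intervals overlapped.

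**Figure D5:**
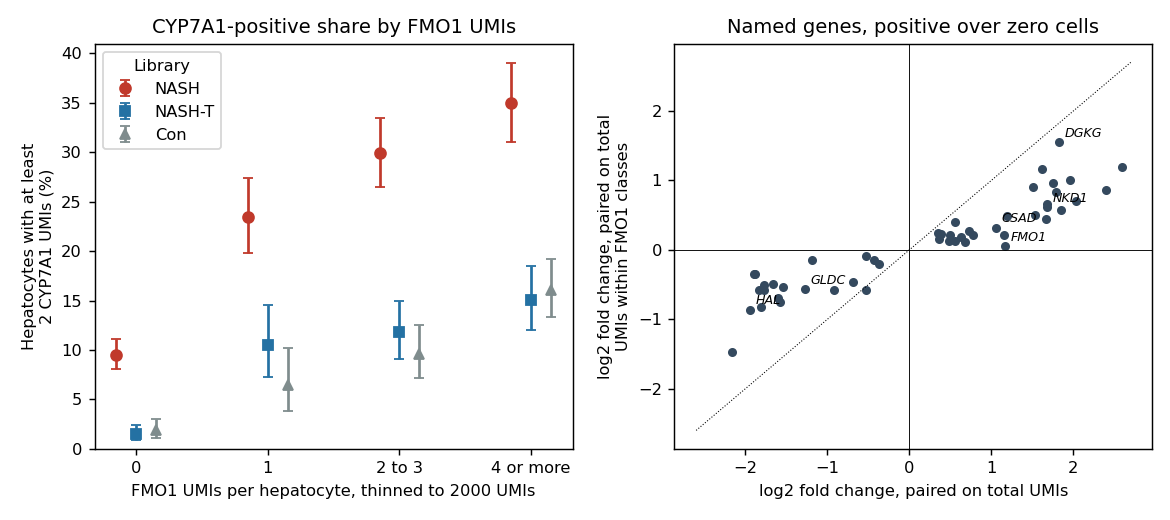
Left, share of hepatocytes with at least 2 CYP7A1 UMIs (%, with exact binomial 95% intervals) by FMO1 UMIs of the cell after thinning to 2000 UMIs, for NASH, NASH-T and Con. Right, log2 fold change of the named genes, positive over zero cells, paired on total UMIs alone (horizontal) and within FMO1 classes (vertical); most points lie between the dotted line of equal values and 0, with CSAD at 1.05 and 0.32.

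Cells were graded by CYP7A1 UMIs (1, 2 to 3, 4 to 7, 8 or more), and each grade was paired with zero cells as above. Of 33 genes followed, most of them named because they had passed, 26 had all 12 ratios (4 grades in 3 libraries) on the side of the fit over all positive cells, and 7 did not. LGR5 was among the 7, with ratios of 1.46, 1.01, 0.913 and 1.38 over the grades in Con, and HAL, below 1 throughout, reached 0.947 (0.487 to 1.84) at 4 to 7 UMIs in Con. For CSAD the ratio to zero cells was 1.52, 1.82, 2.02 and 2.16 over these grades in NASH, 2.01, 2.27, 2.87 and 2.68 in NASH-T and 1.83, 1.69, 1.26 and 1.79 in Con. It grew with the grade in NASH, and in Con it did not. For FMO1 it was 1.92, 2.19, 2.30 and 2.47 in NASH, 1.46, 2.00, 2.06 and 2.40 in NASH-T and 1.79, 1.82, 1.66 and 2.01 in Con, above 1 already in cells with a single CYP7A1 UMI. For GLDC it was 0.631, 0.477, 0.451 and 0.408 in NASH, 0.487, 0.398, 0.290 and 0.383 in NASH-T and 0.333, 0.522, 0.466 and 0.330 in Con, below 1 in all 12 values. Grades are parts of the same libraries and share zero cells, so these ratios carry no test.

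Between libraries, the positive cells differed in genes of cholesterol and fatty acid synthesis. These comparisons set 1 pool against 1 pool, so they are descriptions with no test, and NASH and NASH-T are both set against the same Con library. A gene counted as higher or lower at 1.5-fold with at least 50 UMIs over both libraries; in positive cells this held for 6.64% higher and 11.8% lower of 8902 genes in NASH against Con, 5.35% and 12.4% of 7497 in NASH-T against Con, and 6.27% and 9.41% of 8705 in NASH-T against NASH. Cholesterol synthesis genes were higher in 14 and lower in 1 of 18 in NASH against Con (median log2 ratio 1.51), higher in 10 and lower in 0 of 17 in NASH-T against Con (0.95), and higher in 0 and lower in 9 of 18 in NASH-T against NASH (-0.58). Of all genes in zero cells, 7.30% were higher and 9.97% lower in NASH against Con, 5.31% and 9.01% in NASH-T against Con, and 6.23% and 7.73% in NASH-T against NASH. For cholesterol synthesis genes in zero cells the medians were 1.43, 0.67 and -0.51 in the same 3 comparisons. HMGCS1, an early enzyme of cholesterol synthesis, stood at 95.7, 43.9 and 11.3 CPM in all positive cells of NASH, NASH-T and Con. Lipogenesis genes were higher in 11 and lower in 0 of 19 in NASH against Con (median 0.79; zero cells 0.65), and in 10 and 1 of 17 in NASH-T against Con (median 0.59; zero cells 0.45).

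In NASH against Con, the named genes that were higher in positive cells included fatty acid enzymes. FASN, fatty acid synthase, had 359 CPM in NASH and 24.1 CPM in Con (ratio 14.9, interval 11.6 to 19.5; zero cells 457 and 25.6 CPM). SCD, which desaturates stearate, had 45.2 CPM in NASH and 2.33 CPM in Con (ratio 19.3, interval 8.78 to 53.1; zero cells 53.2 and 0.426 CPM). DHCR7, the last step of cholesterol synthesis, had 21.1 CPM in NASH and 1.56 CPM in Con (ratio 13.6, interval 5.19 to 50.6; zero cells 22.0 and 4.26 CPM). RRAD, a small GTPase, RASL11A and CACNA2D3 completed the 6, with 79, 94 and 324 UMIs in NASH and 1, 3 and 7 in Con. Lower in NASH were PAK5 (1.51 CPM in NASH, 135 CPM in Con), PAPPA, MAP2, the imprinted gene NNAT, GPX3 and SULF1, all at ratios of 0.0750 or less. PAK5, a protein kinase, had a positive-over-zero ratio of 0.874 in NASH and 1.99 in NASH-T, against 8.51 in Con. The edgeR fit over the 3 libraries called PAK5 higher (2.49 ± 0.41, edgeR adjusted p = 0.0079), and DESeq2 did not (1.41 ± 0.90, DESeq2 adjusted p = 1.00). It was too sparse to be tested without Con. A PAK5 UMI was seen in 15.6% of paired Con positive cells, and how many of the 5 pooled goats these came from cannot be told.

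In NASH-T against Con, SLCO5A1, SCD, VLDLR (a lipoprotein receptor), LTF (lactoferrin), SLC7A11 (the cystine carrier) and CDH12 were higher, and PTPRD, PAK5, NNAT, RORB, WIF1 and SHROOM3 lower. VLDLR had 37.8 CPM in NASH-T and 3.89 CPM in Con (ratio 9.73, interval 5.04 to 21.0; zero cells 28.8 and 6.82 CPM). SLC7A11 had 44.4 CPM in NASH-T and 5.06 CPM in Con (ratio 8.77, interval 4.91 to 17.0; zero cells 15.7 and 12.4 CPM), a zero-cell ratio of 1.27 (0.758 to 2.15). PTPRD, a receptor phosphatase, had 1.74 CPM in NASH-T and 69.6 CPM in Con (ratio 0.0250, interval 0.00673 to 0.0651; zero cells 2.62 and 108 CPM). In NASH-T against NASH, TLR7, TRPC6, FBN2, ANKRD33B, PPP2R2C and MAP2 were higher and PTPRD, FBN3, CACNA2D3, RORB, C1QTNF3 and UPP2 lower. TLR7, a receptor for single-stranded RNA, had 30.0 CPM in NASH-T and 1.36 CPM in NASH (ratio 22.1, interval 11.0 to 50.3; zero cells 9.16 and 1.77 CPM). TRPC6, a cation channel, had 149.6 CPM in NASH-T and 7.10 CPM in NASH (ratio 21.1, interval 15.5 to 29.2; zero cells 218 and 10.3 CPM), a zero-cell ratio of 21.2. UPP2 had 34.4 CPM in NASH-T and 210.1 CPM in NASH (ratio 0.164, interval 0.129 to 0.205; zero cells 212 and 516 CPM). The goats behind a gene seen in a minority of cells cannot be told apart within a pool.

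Of 15 bile acid synthesis genes measured in positive cells, 0 were higher and 2 lower in NASH than in Con (median log2 ratio -0.13), 1 higher and 2 lower of 14 in NASH-T than in Con (-0.19), and 0 higher and 1 lower of 15 in NASH-T than in NASH (-0.03). Over all genes 6.64% were higher and 11.8% lower in NASH than in Con, and 5.35% higher and 12.4% lower in NASH-T than in Con. In NASH-T against NASH these shares were 6.27% and 9.41%. In zero cells the median log2 ratio of the bile acid synthesis genes was 0.01 in NASH over Con, -0.11 in NASH-T over Con and 0.03 in NASH-T over NASH. CYP27A1 was at 179, 244 and 340.0 CPM in all positive cells of NASH, NASH-T and Con. Its ratio in NASH over Con was 0.526 (0.482 to 0.575), and in zero cells it was lower still at 0.437 (0.390 to 0.490). CYP8B1 was at 66.4, 61.8 and 74.3 CPM in positive cells of NASH, NASH-T and Con, against 53.2, 52.4 and 48.6 CPM in zero cells. In positive cells of NASH, NASH-T and Con, CSAD was at 649.5, 580.2 and 524 CPM. Its ratio was 1.24 (1.17 to 1.32) in NASH over Con and 1.11 (1.03 to 1.20) in NASH-T over Con, while in zero cells the ratios were 0.996 and 0.700. ABCC2, the canalicular exporter of conjugated bilirubin, was at 951, 1042 and 632 CPM in NASH, NASH-T and Con. FMO1 was at 1121, 1478 and 1838 CPM in positive cells of NASH, NASH-T and Con, lowest in NASH, where CYP7A1-positive cells were most frequent. The order was the same in zero cells, at 498, 687 and 913 CPM. In the list of 12 pool-linked hepatocyte genes, 8 were tested between positive and zero cells; PAK5 rose and RIPOR2 fell (-0.69 ± 0.16, edgeR adjusted p = 0.04; 0.095 without NASH and 0.27 without NASH-T; DESeq2 adjusted p = 0.33). Among all genes tested, 1.84% rose and 1.25% fell between positive and zero cells. The 12 listed genes had been seen in earlier results of these data to differ between the pools. In positive cells of NASH against Con, 3 were higher and 7 lower of 10 measured, beside 6.64% and 11.8% of all genes. That count follows from how the list was chosen.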

How the data were processed

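The deposited files are 3 gene-by-barcode matrices of raw UMI counts, 1 per library, produced by the authors with Cell Ranger 7.0.0, per the submitters' processing notes; genome build and annotation: not given in the sources used here. Of 27271 genes, 9958 carry an identifier without a symbol. The 3 libraries hold 31195014, 29572158 and 25506238 UMIs (NASH, NASH-T, Con), and their median depths per barcode are 2555, 2201 and 2461 UMIs.

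Cells were chosen by UMI counts of 6 genes, as the results state, and these genes were left out of library sizes and tests. Each positive cell was paired within its library with 1 CYP7A1-zero hepatocyte whose total lay within 10%. Summed counts were fitted with edgeR 4.0.16 (TMM scaling, filter on low counts, quasi-likelihood test, library as a block, R 4.3.3), with Benjamini-Hochberg adjustment over all genes tested and a threshold of 0.05. The code was tested on simulated data. The libraries supply the pairing, since positive and zero cells of 1 library come from the same pool. Differences between libraries are ratios of CPM with exact intervals and no test.

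Genes named are the 12 called genes with a symbol with the largest and the 12 with the smallest log2 fold change among those on 1 side of 1 in all 3 libraries, the markers CSAD and CACNA2D3, up to 4 called members of each list, and the 6 largest and 6 smallest ratios of each library comparison. Other list members were picked for their role or their call after values had been seen. The members and gene lists were chosen with earlier results of these data known, and some lists were taken from that earlier work.

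Alternatives were DESeq2 1.42.0, other scaling and filters, no block, closer or no matching, other thresholds, thinning to 2000 UMIs, removal of doublets (Scrublet in scanpy 1.11.5, expected rate 0.06), and leaving out each library. Pairing within FMO1 classes was chosen after seeing the data. Other software was Python 3.11.15, numpy 2.4.6, pandas 2.3.3, scipy 1.17.1 and matplotlib 3.10.9. Promoter and protein sequences were not used here. Some genes are not reported here and are left out of the figures by name; counts and medians of lists include them.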

Additional observations from a re-analysis of the deposited data

Results flagged for a closer look

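In 7 genes the positive cells differed from the zero cells one way in 1 or 2 libraries and the opposite way in another, with counting intervals on opposite sides of 1. No share over all genes tested stands beside this number, so it is not a rate. The difference between libraries was not tested, since each library is 1 pool; goats within a pool cannot be told apart.

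PDK4, a kinase that restrains the use of pyruvate, had positive-over-zero ratios of 0.492 (0.441 to 0.548) in NASH, 0.497 (0.440 to 0.561) in NASH-T and 1.51 (1.32 to 1.74) in Con. TRPC6, a cation channel, had ratios of 0.603 (0.386 to 0.929) in NASH and 3.82 (2.64 to 5.64) in Con. NNAT, an imprinted gene, had 0.405 (0.246 to 0.648) in NASH-T and 2.97 (2.43 to 3.64) in Con. PAPPA, a protease of the IGF axis, had 0.554 (0.366 to 0.826) in NASH-T and 1.57 (1.04 to 2.39) in Con.

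The other 3 genes mark other cell types. CFTR, a chloride channel of bile ducts, had 2.91 (1.44 to 6.39) in NASH and 0.0933 (0.0183 to 0.298) in Con. PKHD1, of the duct cilium, had 2.85 (1.52 to 5.67) in NASH-T and 0.221 (0.108 to 0.419) in Con. ACTA2, the smooth muscle actin, had 0.388 (0.166 to 0.837) in NASH and 3.99 (1.08 to 22.0) in NASH-T.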

How the results depend on the processing

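Against 176 genes higher and 119 lower in the fit reported above, DESeq2 called 105 and 52 (104 and 52 of them shared), no filter on low counts 321 and 259, and zero cells that could hold STAB2, MSR1 or THEMIS UMIs 303 and 457. Pairing within FMO1 classes gave 4 and 3. With the replicate block (library) left out of the fit, 4 genes were higher and 0 lower; edgeR then had 197 higher and 180 lower genes at an unadjusted p under 0.05, and DESeq2, with the block, its 52 lower genes. Leaving out 1 library each gave 97 to 227 higher and 58 to 196 lower genes. Scaling by total UMIs gave 145 and 140. The other 9 settings gave 151 to 197 higher and 112 to 141 lower. Of 51 named genes with a call, 48 lost it without the block, 48 of 49 within FMO1 classes, 9 under DESeq2, 12 without NASH, 13 without NASH-T and 1 of 50 without Con; none changed direction. The cause was not tested.

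With a single CYP7A1 UMI enough, the share of positive cells was 42.4% in NASH, 19.0% in NASH-T and 22.3% in Con, and after thinning 34.1%, 13.9% and 15.9%. With the rule's 2 UMIs, it was 20.4%, 7.66% and 8.30% after thinning. After thinning, 626 genes were lower in NASH than in Con and 452 in NASH-T than in Con, with fewer genes reaching 50 UMIs. In zero cells the NASH-T over Con ratio of CDH12 was 0.811 (0.420 to 1.54, from 19 and 24 UMIs). That of WIF1 was 2.39 (0.546 to 14.3, from 7 and 3 UMIs). Both values lay on the other side of 1 from those of positive cells, but both intervals span 1, so no reversal is shown. For RRAD after thinning and CDH12 at 4 or more CYP7A1 UMIs, no ratio could be had, since Con had no UMI. Genes under about 50 UMIs were out of reach at this depth.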
